A study of Mus musculus with 380 samples.

Results

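The genes described here are 10 growth genes best known from the fetus, Lin28b, Igf2bp1, Igf2bp2, Igf2bp3, Hmga2, Igf2, H19, Mycn, Myc and Dlk1, chosen by name from the 30324 genes in the files. They were followed through single thymic epithelial cells (TECs) of 10 mice by CEL-Seq2, which counts the 3′ ends of transcripts with unique molecular identifiers (UMIs). Wild-type C57BL/6 mice were taken at embryonic day E16.5 (1 female), on the day of birth (P0, 1 female), at 4 weeks (postnatal day P28, 2 males, non-barcoded and barcoded, and the barcoded females A and B) and at 1 year (1 female). Mice carrying Fgf7 under the Foxn1 promoter (Foxn1-Fgf7, labelled Fgf7 tg), which makes TECs produce this epithelial growth factor themselves, were taken at P28 (1 non-barcoded male and 1 barcoded female) and at 1 year (1 barcoded male). In barcoded mice, wild type and transgenic alike, a guide RNA transgene and Foxn1-driven Cre and Cas9 scar the Hprt gene of TECs, and the content of each well was divided between transcriptome and barcode, whereas non-barcoded mice gave the whole well. The non-barcoded transgenic male had an FVB/N background backcrossed to C57BL/6J. In the non-barcoded wild-type male 4 of 20 unsorted libraries, labelled as a biological replicate, had 382 transcripts of Xist per 1000000 (CPM) against 1.57 CPM in the others, so that this group, counted as 1 mouse, may hold another animal. The 12 libraries of the non-barcoded transgenic male are not among those the study's methods list and were taken as 1 mouse, an assumption on which the number of 2 transgenic mice at P28 rests. Each age other than P28 rests on 1 mouse, so that age, mouse and plate cannot be told apart there, and at 1 year genotype is also tied to sex. Cells called unsorted below are all EpCAM+CD45- TECs, and extra libraries held Ly51+ (cortex-enriched) or UEA1+ (medulla-enriched) TECs.

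In vertebrate embryos the RNA-binding protein Lin28b blocks the maturation of let-7 microRNAs, and let-7 in turn lowers the transcripts of Lin28b itself, of Hmga2 and of the Igf2 mRNA-binding proteins. Igf2 is a fetal insulin-like growth factor expressed from the paternal allele, whereas the neighbouring non-coding RNA H19 is expressed from the maternal allele, and Dlk1 is a paternally expressed membrane protein of another imprinted cluster. Myc and Mycn are transcription factors that raise ribosome production and growth. Mature let-7 was not measured by this assay, which primes on poly(A) tails.

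The let-7 sequences are shown because 5 of these genes carry matches to their shared seed. Mature let-7 and miR-98 sequences from RefSeq (GRCm38.p6) are given 5′ to 3′ with the seed, bases 2 to 8, in capitals, and 10 of 11 mature sequences of the family had this seed.
let-7a-5p: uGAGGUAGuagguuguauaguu
let-7b-5p: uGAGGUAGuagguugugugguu
let-7g-5p: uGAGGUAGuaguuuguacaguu
let-7i-5p: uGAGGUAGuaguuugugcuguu
miR-98-5p: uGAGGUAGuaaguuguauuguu

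The 7-base match to this seed, CTACCTC, was searched on the transcribed strand of the longest annotated 3′ untranslated region (UTR) of each gene in the GENCODE M21 annotation. Of the 9 protein-coding members 5 held it, against 9.02% of the 21020 genes with an annotated 3′ UTR. Lin28b had 4 matches in 4445 bases, Igf2bp1 4 in 6337 bases and Hmga2 4 in 3014 bases, whereas Igf2bp2 and Igf2bp3 had 1 each in 1784 and 2119 bases. Long UTRs hold more matches by length alone: among genes with a 3′ UTR within 20% of the same length, a match was present in 24.2% for Lin28b, 33.7% for Igf2bp1, 12.1% for Igf2bp2, 13.3% for Igf2bp3 and 15.5% for Hmga2. Having 4 or more was rarer, at 0.236% of genes like Lin28b in length, 0.355% like Igf2bp1 and 0.134% like Hmga2. No match was found in the 3′ UTRs of Igf2, Mycn, Myc and Dlk1, which says only that these letters were not in those windows. A match is a description and not a proven site. One 30-base window per gene is printed, on the strand of the gene (GRCm38, minus strand for these 5 genes), with the match in capitals.
Lin28b, chr10:45381011-45381040: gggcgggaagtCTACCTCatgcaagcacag
Igf2bp1, chr11:95959346-95959375: agtgctattaaCTACCTCagccccagaggg
Igf2bp2, chr16:22059462-22059491: acaaataaaagCTACCTCaggtgtttttta
Igf2bp3, chr6:49086776-49086805: tttttactcaaCTACCTCaggtattcagta
Hmga2, chr10:120364213-120364242: acattcaatttCTACCTCagcatcagttgg

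H19 lay 72622 bases from Igf2 on chromosome 7 (H19 chr7:142575529-142578143, Igf2 chr7:142650766-142666816, both on the minus strand), and its exonic sequence contains the precursor of miR-675. The mature forms of miR-675 are shown, seed in capitals, because their seeds differ from that of let-7.
miR-675-5p: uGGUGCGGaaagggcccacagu
miR-675-3p: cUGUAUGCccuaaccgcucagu

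The unsorted cells that passed the quality filters numbered 23585, between 1055 and 5036 per mouse, with a median of 3110 to 10665 UMIs per cell. Levels are given as CPM, the transcripts of a gene per 1000000 summed transcripts of a mouse, without mitochondrial genes, spike-ins and Hprt, and intervals in the text are 95% exact Poisson intervals (for ratios of UMIs, exact binomial intervals given the summed count) that cover counting error only. The transgene was checked first: Fgf7 stood at 47.4, 100 and 20.3 CPM in the 3 Foxn1-Fgf7 mice, the non-barcoded male, the P28 female and the 1-year male, against 0.176 to 6.31 CPM in the 7 wild-type mice. The 12 libraries of the non-barcoded transgenic male carry FGF7WT in their titles but are described as transgenic, and their Fgf7 level lies with the other transgenic mice. The libraries of the barcoded transgenic mice are described as wild type but carry the genotype Fgf7 tg, and their Fgf7 level lies there too. All 8 genes of the thymic epithelium list were detected in each mouse, with summed levels of 4066 to 9290 CPM. At 1 year the parathyroid list (4 genes) summed to 25923 CPM, and in P28 female B 17.1% of cells carried thymocyte markers. At 1 year 25.8% of cells also reached the limit of 3 UMIs for the mesenchyme list, but Dcn alone made 1561 of the 1665 CPM of the list. The other 11 genes summed to 103.7 CPM, within the 85.8 to 105.7 CPM of the P28 mice, and 4 of them were above, 4 below and 3 within the P28 range. In sums over a mouse, fewer cells of a type and less RNA per cell cannot be told apart.

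Hmga2, Igf2bp2 and Igf2bp3 stood above all P28 mice both at E16.5 and at P0. Hmga2, an architectural chromatin protein of growing fetal tissues, was at 90.9 CPM in the E16.5 mouse and at 41.7 CPM in the P0 mouse. In the 4 P28 mice, listed here and below as non-barcoded male, barcoded male, female A and female B, it was at 5.41, 2.26, 3.76 and 2.29 CPM (mean 3.43 ± 1.49 SD, n = 4), and in the 1-year female at 1.89 CPM. The E16.5 value was 16.8-fold and the P0 value 7.72-fold above the highest P28 mouse, and the order E16.5, P0, all P28 mice held without overlap of the counting intervals. The makeup of the cells moved with age as well: Psmb11, a cortical gene, was at 1016 CPM at E16.5 and 1098 CPM at P0 against 81.8 to 413 CPM at P28, the cortical TEC list summed to 13024 and 28210 CPM against 1978 to 9474 CPM, and the medullary gene Aire was at 29.8 and 25.6 CPM against 283.99 to 370 CPM. Values within Psmb11-positive cells are given further on, and the part of cell makeup in the other differences with age was not tested.

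Igf2bp2, which binds and stabilises mRNAs, Igf2 mRNA among them, followed the same order. It was at 119 CPM at E16.5, 60.6 CPM at P0, and 8.92, 10.1, 6.60 and 6.64 CPM in the P28 mice (8.06 ± 1.73, SD, n = 4). The 1-year female, at 9.34 CPM, lay within the P28 range. E16.5 was 11.8-fold and P0 6.01-fold above the highest P28 mouse, and within the E16.5 mouse all 32 libraries were at 76.5 CPM or more, above every P28 mouse. Its relative Igf2bp3, silent in most adult tissues, was at 47.6 CPM at E16.5 and 28.4 CPM at P0. The P28 mice had 1.51, 3.56, 5.39 and 9.64 CPM (5.02 ± 3.46, SD, n = 4) and the 1-year female 3.41 CPM. Thus E16.5 and P0 stood 4.93-fold and 2.95-fold above the highest P28 mouse, although the P28 mice themselves covered a wide range, with female B highest. Up to 55.7% of the Igf2bp3 UMIs of a P28 mouse came from thymocyte-marked cells. In cells without these marks the P28 mice were at 1.52 to 5.27 CPM.

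Igf2bp1, the third of these mRNA-binding proteins, was high at E16.5 but not at P0. It was at 12.52 CPM at E16.5 and 1.502 CPM at P0, against 2.24, 4.02, 4.27 and 2.37 CPM at P28 (3.23 ± 1.07, SD, n = 4) and 1.39 CPM at 1 year. E16.5 was 2.93-fold above the highest P28 mouse, and the P0 interval (0.962 to 2.23) overlapped that of the lowest P28 mouse (1.64 to 2.99). Lin28b, the let-7 antagonist, was detected at 5 to 35 UMIs per wild-type mouse and did not share the fetal rise. It was at 0.395 CPM (0.181 to 0.750) at E16.5, 0.688 CPM at P0, 1.17, 1.06, 0.914 and 2.21 CPM at P28 (1.34 ± 0.592, SD, n = 4) and 0.631 CPM at 1 year. By value E16.5 was 2.31-fold below the lowest P28 mouse, but this rests on 9 UMIs in each of the pair and their intervals overlap (0.418 to 1.74 in P28 female A).

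The imprinted genes did not move as a group. H19 was at 258 CPM at E16.5 and 60.4 CPM at P0, and at 37.6, 7.62, 22.1 and 85.4 CPM in the P28 mice (38.2 ± 33.8, SD, n = 4), with 5.18 CPM at 1 year. E16.5 was 3.02-fold above the highest P28 mouse, the P0 mouse lay inside the P28 range, and the 1-year female was 1.47-fold below the lowest P28 mouse. In P28 female B 706 H19 UMIs came from thymocyte-marked and 358 from other cells, and in the cells without those marks it was at 34.97 CPM.

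Igf2 was at 84.2 CPM at E16.5, 15.5 CPM at P0, and 49.6, 43.2, 24.7 and 106.4 CPM at P28 (55.98 ± 35.2, SD, n = 4), with 26.2 CPM at 1 year. The E16.5 and 1-year mice lay inside the P28 range and P0 was 1.60-fold below it, less than the difference among P28 mice, whose highest was 4.30-fold above the lowest. The top of the P28 range rested on 1 cell of female B with 44.4% of its Igf2 UMIs. Without the cell of most Igf2 UMIs in each mouse, E16.5 was at 76.9 CPM, above the P28 mice at 38.04, 35.1, 21.8 and 57.3 CPM, so that the place of E16.5 for Igf2 depends on single cells. Dlk1 was at 21.3 CPM at E16.5, 6.02 CPM at P0 and 39.9, 23.4, 25.03 and 28.8 CPM at P28 (29.3 ± 7.43, SD, n = 4), with 5.94 CPM at 1 year. Both the P0 mouse and the 1-year mouse were below all P28 mice, by 3.89-fold and 3.95-fold from the lowest. Aire was below the P28 mice in both too, at 25.6 and 122 CPM against 283.99 to 370 CPM, and its part was not tested. The P0 direction depended on the cells taken, since with the sorted libraries included Dlk1 was above the P28 mean by 0.46 on the log2 scale.

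Part of the fetal signal of the imprinted genes sat in very few cells. At E16.5, 12 cells with at least 3 UMIs of mesenchyme markers (0.472% of cells) held 36.8% of Igf2, 12.7% of H19 and 72.8% of Dlk1 UMIs. Their levels were 8367 CPM of Igf2, 8851 CPM of H19 and 4155 CPM of Dlk1, against 53.2, 225 and 5.78 CPM in the other E16.5 cells. Without the marked cells, mesenchymal and thymocyte, the E16.5 level of Dlk1 was lower than the mean of the P28 mice by 2.40 on the log2 scale, in place of 0.46. Igf2bp2 (118 CPM), Igf2bp3 (47.6 CPM) and Hmga2 (90.9 CPM) had nearly the same level in the E16.5 cells without mesenchyme marks as in all of them.

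The Myc genes showed no fetal rise. Myc was at 52.7 CPM at E16.5 and 67.8 CPM at P0, within the range of the P28 mice at 26.6, 89.1, 33.2 and 50.7 CPM (49.9 ± 28.05, SD, n = 4), as was the 1-year mouse at 35.7 CPM. Mycn was at 4.48 CPM at E16.5 and 2.07 CPM at P0, against 2.83, 4.44, 3.15 and 6.48 CPM at P28 (4.22 ± 1.66, SD, n = 4). At 1 year it was at 0.884 CPM (0.355 to 1.82, from 7 UMIs), 3.20-fold below the lowest P28 mouse (2.15 to 3.66), whereas in Psmb11-positive cells alone it was above the P28 mean by 0.43 on the log2 scale.

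**Figure D1:**
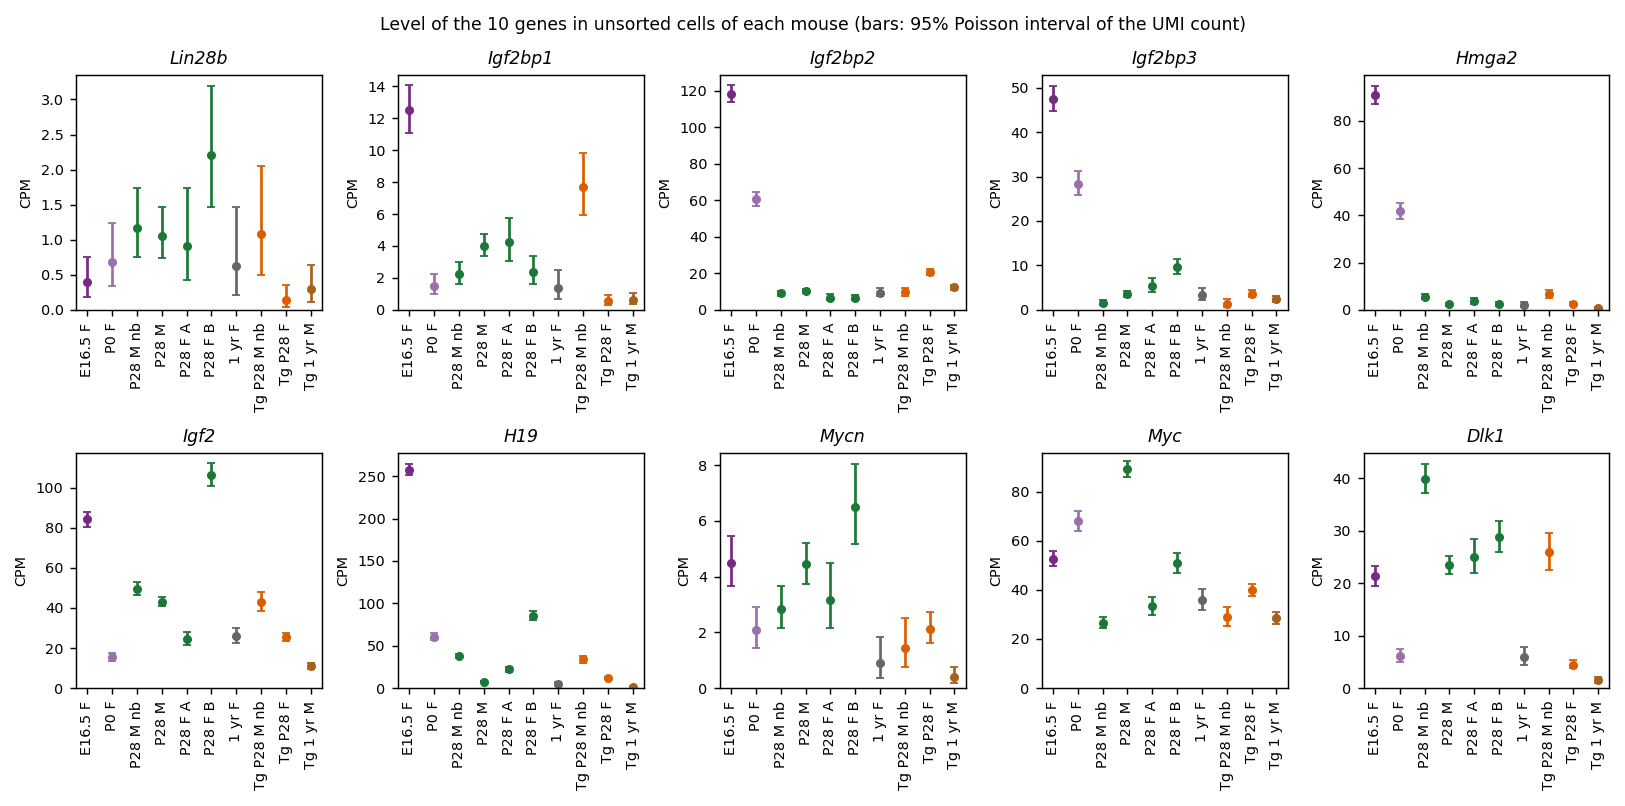
Level of each gene, in CPM on a linear axis that starts at 0, in unsorted cells of the 10 mice (purple E16.5 and P0, green P28, grey 1 year, orange and brown Foxn1-Fgf7; nb, non-barcoded; M and F, male and female; bars, 95% Poisson intervals of the UMI count). Hmga2, Igf2bp2 and Igf2bp3 fall from E16.5 through P0 to P28, H19 and Igf2bp1 are highest at E16.5 alone, and Myc, Mycn and Dlk1 have their highest mouse at P28, as has Igf2, where 1 cell holds 44.4% of the UMIs of that mouse.

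Each of the other ages had 1 mouse, no test between ages was run, and a gene was counted as apart where it lay at least 2-fold above the highest or below the lowest P28 mouse. At E16.5 5 of the 10 members were higher (Igf2bp1, Igf2bp2, Igf2bp3, Hmga2 and H19), against 3.84% of all 24350 genes with at least 10 UMIs, and 1 was lower (Lin28b), against 26.6%. At P0 3 were higher (Igf2bp2, Igf2bp3 and Hmga2), against 3.17% of genes, and 1 was lower (Dlk1), against 20.1%. At 1 year none was higher, where 2.19% of genes were, and 2 were lower (Mycn and Dlk1), where 6.65% were. At E16.5 3 members (Igf2bp2, Igf2bp3 and Hmga2) also passed a 4-fold limit, and at P0 2 did (Igf2bp2 and Hmga2). The members were chosen with earlier results of these data known, so these shares are a description and not an independent test.

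Other genes of these pathways, from lists also chosen with earlier results known, are given beside the members. Of 24 genes of the let-7 and Lin28 axis, none was higher than the P28 range at E16.5 and 2 were lower: Trim71, an embryonic let-7 target with 0 UMIs at E16.5, and Ccnd1, the D-type cyclin, at 4.83 CPM against 42.7 to 63.5 CPM. Of 22 imprinted growth genes 7 were higher at E16.5 and 1 was lower, with a median log2 difference from the P28 mean of 0.67 where the median of all genes was -0.83. The imprinted genes that differed most were the amino acid transporter Slc38a4 (74.5 CPM against 8.77 to 14.8), the receptor adaptor Grb10 (242 CPM against 29.2 to 43.5) and the retrotransposon-derived Peg10 (6.59 CPM against 0.453 to 2.34).

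Genes of IGF signalling were split at E16.5, with 4 of 19 higher and 8 lower. Igf1, the postnatal ligand, was at 4.44 CPM at E16.5 and 4.63 CPM at P0, against 89.9 to 331.6 CPM at P28, at least 19.4-fold below the lowest P28 mouse at both ages. Ins2 was represented by 1 UMI at E16.5 and Htra1, a protease that cleaves IGF-binding proteins, stood at 2.86 CPM against 65.1 to 102.96 CPM. At 1 year 3 binding proteins were higher than at P28, Igfbp4 (1171 CPM against 124 to 203.6), Igfbp5 (1718 CPM against 252.2 to 516) and Igfbp3 (72.4 CPM against 12.3 to 32.6), in the mouse with the high Dcn level, whose part was not tested. In the Myc network 3 of 14 genes were higher and 1 was lower at E16.5, and of 30 Myc target genes 4 were higher (Ldha, Fbl, Ybx3 and Npm1) and none lower. At P0 the numbers higher and lower were 0 and 1 of 24 for the let-7 axis, 3 and 2 of 22 for imprinted genes, 3 and 8 of 19 for IGF signalling, 2 and 2 of 14 for the Myc network and 1 and 0 of 30 for Myc targets. At 1 year 4 imprinted genes were lower, led by Meg3 (2.02 CPM against 4.47 to 58.96), a non-coding RNA of the Dlk1 cluster, and Cdkn1c (27.4 CPM against 81.2 to 614), a cell cycle inhibitor.

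At E16.5 Igf2bp2, Igf2bp3, Hmga2 and H19 were spread over many cells, whereas Igf2 and Dlk1 had most of their UMIs in few cells. To compare shares between cells of unequal depth, each cell was reduced at random to 1000 UMIs, and 1186 shallower cells were left out. Igf2bp2 was then seen in 10.9% of E16.5 cells, 5.90% of P0 cells and 0.719% to 1.07% of cells of the P28 mice, and Hmga2 in 9.05%, 3.46% and 0.147% to 0.894%. Without thinning, Igf2bp2 was seen in 58.8% of E16.5 cells, 46.9% of P0 cells and 3.61% to 7.36% of P28 cells, and in 0.303% of 33696 wells whose barcodes were not used in a library and which measure misassigned reads (median 128 UMIs per well against 5983 in kept cells). Igf2bp3 was in 4.64% of thinned cells at E16.5 against 0.179% to 1.08% at P28, and H19 in 16.3% against 0.693% to 5.93%. Igf2 was seen in as many E16.5 cells as Igf2bp3, 4.72% against 1.49% to 3.23% at P28. Dlk1 was in 0.826% against 1.19% to 1.85%. In the unused wells, which were not thinned, H19 had a UMI in 1.30%, Hmga2 in 0.312% and Igf2bp3 in 0.166%.

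How far a gene depends on a few cells was measured as the share of its UMIs held by the top 1% of cells of a mouse. For Igf2bp2 this share was 5.52% at E16.5 and 28.6% to 41.02% at P28, and for Hmga2 9.42% and 27.03% to 85.3%. A gene counted a few times per mouse reaches a high share by its low count alone, as Lin28b shows with 89.3% or more in each mouse. Igf2bp2 in P28 female B had 84 UMIs in 81 cells, at most 3 per cell, and still a share of 28.6%. The shares of Igf2bp2 and Hmga2 therefore do not compare between ages. Igf2 had 56.5% at E16.5 and 66.3% to 81.5% at P28 in spite of 243 to 1416 UMIs per P28 mouse, and Dlk1 had 86.9% and 68.3% to 76.3% on 246 to 812 UMIs. Myc, with 327 to 2951 UMIs in the P28 mice, had only 16.1% to 22.8% in its top cells. H19 had 25.8% at E16.5 and 46.5% to 87.2% at P28, lowest in female B. Igf2 and Dlk1 at P28 were therefore carried mostly by rare cells, and Myc by many.

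**Figure D2:**
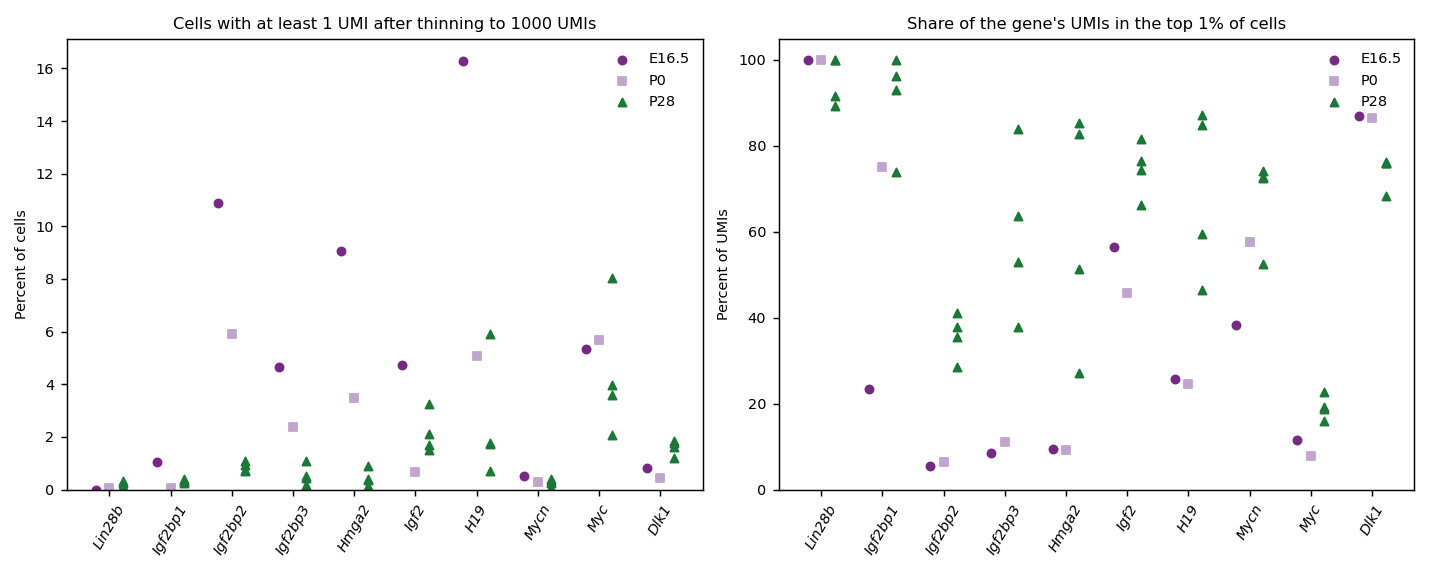
Left, percent of cells with at least 1 UMI of each gene after thinning to 1000 UMIs, and right, percent of the UMIs of a gene that fell in the top 1% of cells, for the E16.5 mouse (circles), the P0 mouse (squares) and each of the 4 P28 mice (triangles). Igf2bp2, Igf2bp3 and Hmga2 are in more cells at E16.5 and P0 than at P28. Their shares on the right also depend on the UMI count and do not compare between ages. Dlk1 is concentrated at all 3 ages.

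In the 4 P28 mice 54 of 10525 cells (0.513%) had 10 or more UMIs of Igf2 and held 68.7% of its UMIs, and none of the 51 that were deep enough for thinning carried mesenchyme marks. For Dlk1 46 cells held 61.9% of the UMIs, and for H19 44 cells held 61.05%. Female B held 26 of these 44 cells, 22 of them thymocyte-marked, against 1 thymocyte-marked cell in the other 3 mice. These rare cells overlapped only in part: 11 of the 54 Igf2-rich cells had an H19 UMI and 11 a Dlk1 UMI. By mouse, in the usual order, an H19 UMI was in 5 of 14, 2 of 20, 1 of 6 and 3 of 14 Igf2-rich cells, against 5.45%, 1.71%, 6.30% and 14.8% of other cells. A Dlk1 UMI was in 4 of 14, 0 of 20, 1 of 6 and 6 of 14 Igf2-rich cells, with 3.85% to 7.12% in other cells, so that the barcoded male had none and female B the most. The share of Dlk1-rich cells with an Igf2 UMI had no common direction, being above that of other cells in both males (5 of 18 and 2 of 14 cells) and below it in both females (0 of 4 and 1 of 10). Deep cells give more UMIs of any gene, and the part of depth was not tested. At E16.5 the overlap was wider, since 27 of 30 Igf2-rich cells had an H19 UMI (54.8% of the others did) and 15 had a Dlk1 UMI (2.90% of the others). Of those 30 cells 8 were mesenchyme-marked.

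Cells were also grouped by 3 TEC genes after thinning: Psmb11-positive (a proteasome subunit of cortical TECs), Aire-positive without Psmb11 (the regulator of antigen display in medullary TECs), Krt5-positive without the other two, and others. The fetal excess of Igf2bp2 was present in each gate. In Psmb11-positive cells it was at 120 CPM at E16.5 and 61.2 CPM at P0 and at 5.67, 6.56, 2.78 and 5.61 CPM at P28, and in Krt5-positive cells at 97.6, 64.7 and 6.53 to 12.3 CPM. Hmga2 in Psmb11-positive cells was at 73.8 CPM at E16.5, 39.1 CPM at P0 and 3.88 to 8.11 CPM at P28, and among other cells it reached 128 CPM at E16.5. Few Aire-positive cells were there at E16.5 (30 cells) and P0 (14 cells), and Hmga2 in them was 8.06 and 13.1 CPM, from 3 UMIs each.

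At P28 the Aire gate held most Igf2bp1 UMIs in 3 of 4 mice. Igf2bp1 was at 7.33, 13.04, 16.05 and 4.66 CPM in Aire-positive cells, against 1.60, 1.17, 1.19 and 0.963 CPM in Krt5-positive cells of the same mice. It was higher in the Aire gate than in any other gate of that mouse in 4 of 4 mice, and the gate held 52.2% to 61.9% of its UMIs in 3 mice and 12 of 30 UMIs in female B, with 11.7% to 17.2% of the cells. All 5 P28 cells with 10 or more UMIs of Igf2bp1 were Aire-positive. These cells, none of them in female B, held 77 UMIs, against 134 UMIs in the Aire gates of the 4 mice together. Their part in the levels of that gate was not tested. Lin28b was at 0.915, 2.35, 3.08 and 6.61 CPM in Aire-positive cells, higher than in the other gates in 3 of 4 mice on 3 to 17 UMIs. Aire-positive cells also had more Dlk1 (35.1 to 67.4 CPM) than Krt5-positive cells (9.06 to 35.1 CPM) in 3 of the 4 mice, and in the non-barcoded male both gates were at 35.1 CPM, where 1 cell held 65.8% of the UMIs of the Krt5 gate. For Igf2 the gates gave no constant order, since the highest gate was Psmb11-positive in the non-barcoded male (210 CPM), Aire-positive in the barcoded male (81.5 CPM) and others in female A (36.8 CPM) and female B (273 CPM). Single cells carried much of these values: 1 cell held 63.6% of the UMIs of the others gate in female B and 1 cell 54.5% of those of the Psmb11 gate in the non-barcoded male, which without them were at 95.5 and 97.3 CPM, still the highest gates of those mice when the top cell of each gate was left out. At E16.5 Igf2bp1 was at 9.86 to 16.6 CPM in the 4 gates, with 4 UMIs in the 30 Aire-positive cells, too few to compare that gate.

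**Figure D3:**
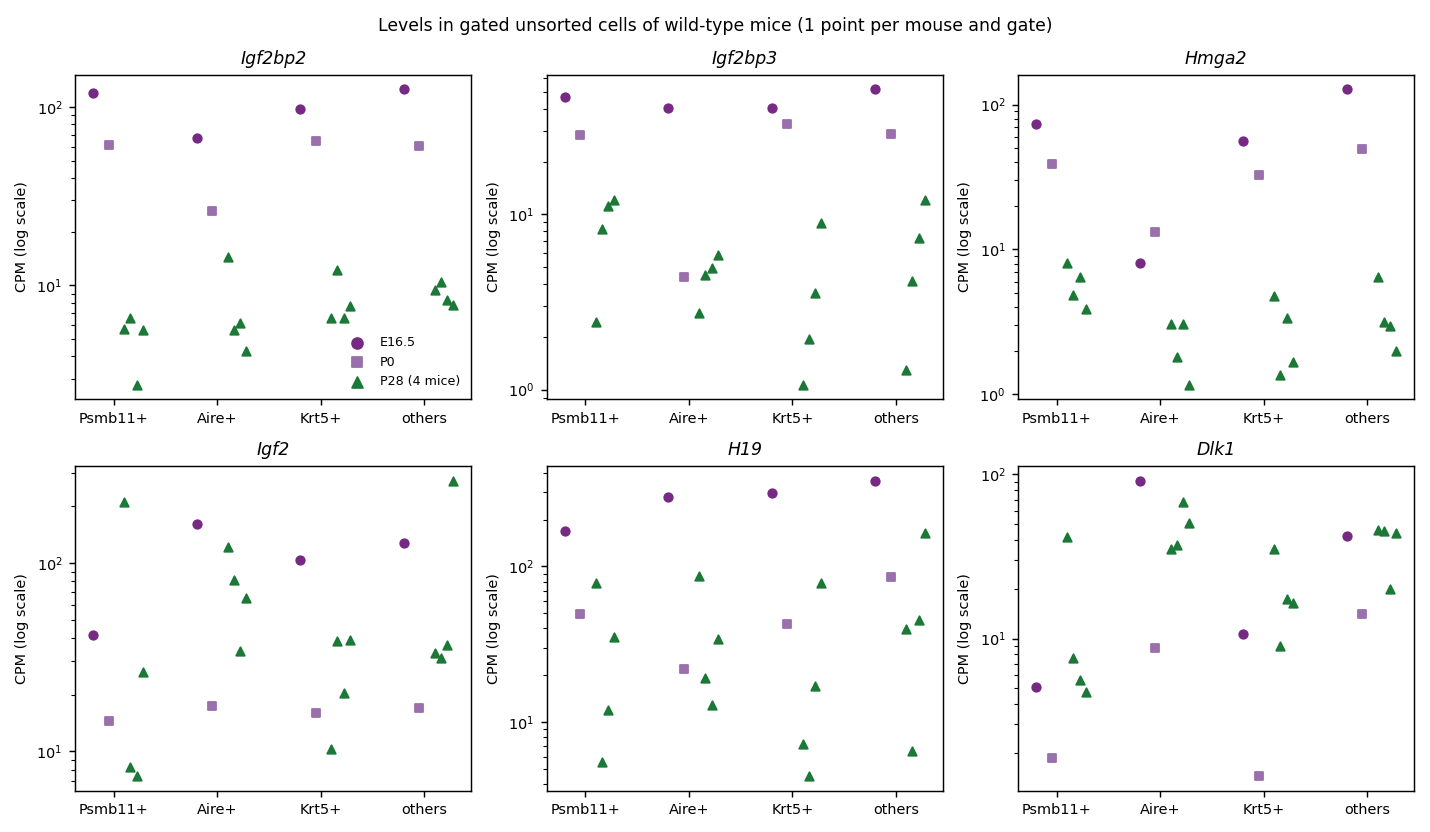
CPM on a log axis of 6 genes in 4 gates of unsorted cells, 1 point per wild-type mouse (circles E16.5, squares P0, triangles the 4 P28 mice). The E16.5 and P0 points of Igf2bp2 stand above all P28 points in each gate, whereas the P28 points of Igf2 in Psmb11-positive cells reach from 7.40 to 210 CPM.

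Ly51+ cells, compared with unsorted cells of the same 3 P28 mice, asked whether these genes belong to the cortical side. The sort itself was visible in Psmb11, higher by 3.38 on the log2 scale in Ly51+ cells, and in Aire, at -9.28. Dlk1 was at 1.17, 0 and 0.431 CPM in the Ly51+ cells of the non-barcoded male, female A and female B (4, 0 and 1 UMIs), against 39.9, 25.03 and 28.8 CPM in unsorted cells. It was lower in 3 of 3 mice (log2 fold change -5.78 ± 0.49 SE, edgeR quasi-likelihood test with mouse as a block, adjusted p = 0.000703), and over the summed counts the ratio was 0.0177 (0.00573 to 0.0413). Igf2 was at 2.35, 12.6 and 22.1 CPM in Ly51+ cells against 49.6, 24.7 and 106.4 CPM (log2 fold change -2.31 ± 0.54, edgeR adjusted p = 0.0216).

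Igf2bp1 was left with 1 UMI in the Ly51+ cells against 118 UMIs in unsorted cells, a ratio of 0.0425 (0.00107 to 0.242), and was also called lower (edgeR adjusted p = 0.0179). These 3 of the 9 members tested were lower, where 21.8% of all 16944 genes tested were, and none was higher, where 11.3% were. Of the 3, Igf2bp1 and Dlk1 had 1 and 5 UMIs in all Ly51+ cells. Only the unsorted sums took both past the filter on low counts, so their calls are not independent of it. H19 had 3.82, 25.4 and 12.9 CPM in Ly51+ cells against 37.6, 22.1 and 85.4 CPM, which did not pass (log2 fold change -1.79 ± 0.65, edgeR adjusted p = 0.0770) but was called lower by DESeq2 (adjusted p = 0.00791), without the filter on low counts (0.00265), without the non-barcoded male (0.0204) and without female A (0.000470). Hmga2 differed by -1.40 ± 0.60 on the log2 scale (adjusted p = 0.117), Mycn by -0.92 ± 0.59, Igf2bp2 by 0.48 ± 0.36, Igf2bp3 by 0.41 ± 0.43 and Myc by -0.05 ± 0.32, with edgeR adjusted p of 0.274 to 0.918 for the last 4. Lin28b had 2 UMIs in Ly51+ cells and 61 in unsorted cells and was removed by the filter on low counts. Leaving out female B ended the calls of Igf2bp1 (log2 fold change -4.23, edgeR adjusted p = 0.0973, against -4.51 with all 3 mice) and Igf2 (-2.50, adjusted p = 0.139). Leaving out female A ended that of Igf2bp1 (-7.48, adjusted p = 0.0568), and without the mouse block Igf2 did not pass (-2.28, adjusted p = 0.0751).

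Among the pathway lists, 8 of 21 imprinted genes were lower in Ly51+ cells and 2 higher (median log2 difference -0.99, all genes -0.11), led by Mirg (-8.01), Cdkn1c (-4.24) and Plagl1 (-4.05). Mirg lies in the Dlk1 cluster. IGF signalling had 7 of 18 lower and 2 higher, led by Ins2 (-8.80), Igf1 (-6.08) and Igfbp6 (-5.37). Fold changes as large as those of Mirg and Ins2 depend on the prior count of the fit. Genes this low in Ly51+ cells can pass the filter on low counts through the unsorted sums alone. Their calls, like those of Igf2bp1 and Dlk1, are not independent of that filter. The let-7 axis had 4 of 23 higher and 1 lower (Ccnd1, -2.30), the Myc network 5 of 14 higher and 2 lower, and Myc targets 2 of 30 higher (Rrs1 and Srm).

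In the medulla-enriched UEA1+ cells of the P0 mouse, the imprinted members Igf2, Dlk1 and H19 were higher than in unsorted cells. Igf2 was at 247.6 CPM in UEA1+ and 15.5 CPM in unsorted cells, Dlk1 at 115.6 and 6.02 CPM and H19 at 247.7 and 60.4 CPM. The ratios of UMIs were 14.97 (13.1 to 17.2), 18.9 (15.2 to 23.7) and 3.88 (3.57 to 4.22). In the UEA1+ cells 1 cell held 797 of 1313 Igf2 UMIs, 1 cell 309 of 644 Dlk1 UMIs and 1 cell 747 of 1329 H19 UMIs, and without it the levels were 92.02, 59.2 and 102.99 CPM. Igf2bp1 was also higher in the UEA1+ cells (4.58 against 1.502 CPM, ratio 3.05, 1.68 to 5.55), as was Mycn (6.86 against 2.07 CPM, ratio 3.33, 2.04 to 5.46). Hmga2 was at 1.76 CPM against 41.7 CPM (ratio 0.0422, 0.0202 to 0.0782), Igf2bp2 at 20.9 against 60.6 CPM, Igf2bp3 at 15.7 against 28.4 CPM and Myc at 37.1 against 67.8 CPM. Hmga2 and Igf2bp2 were thus lower and Igf2 and Dlk1 higher in the UEA1+ gate of this 1 mouse, with no replicate to test it. In the same cells Aire was at 676.9 CPM against 25.6 CPM and Psmb11 at 55.4 CPM against 1098 CPM in unsorted cells. At P28 the UEA1+ cells of the non-barcoded male did not share this, with 10.1 CPM of Igf2 against 49.6 CPM in unsorted cells and 3.36 CPM of H19 against 37.6 CPM. Hmga2 in the UEA1+ cells was at 5.60 CPM (2.69 to 10.3) at P28 and at 1.76 CPM (0.844 to 3.24) at P0, from 10 UMIs each, so that the excess of the P0 mouse in unsorted cells was not seen in this sort. At 1 year the Ly51+ cells (199 cells) had 91.5 CPM of Igf2 (76.5 to 109, 56.1 without 1 cell that held 51 of 131 UMIs) against 26.2 CPM in unsorted cells (22.7 to 29.99), the opposite direction from the 3 P28 mice, in 1 mouse. In these cells 6 members had no UMI, where 3 UMIs would be 2.11 CPM. Unsorted Dlk1 (5.94 CPM) and H19 (5.18 CPM) lay above this level, whereas Lin28b, Igf2bp1, Hmga2 and Mycn lay below it, so that their absence was not informative at this depth.

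**Figure D4:**
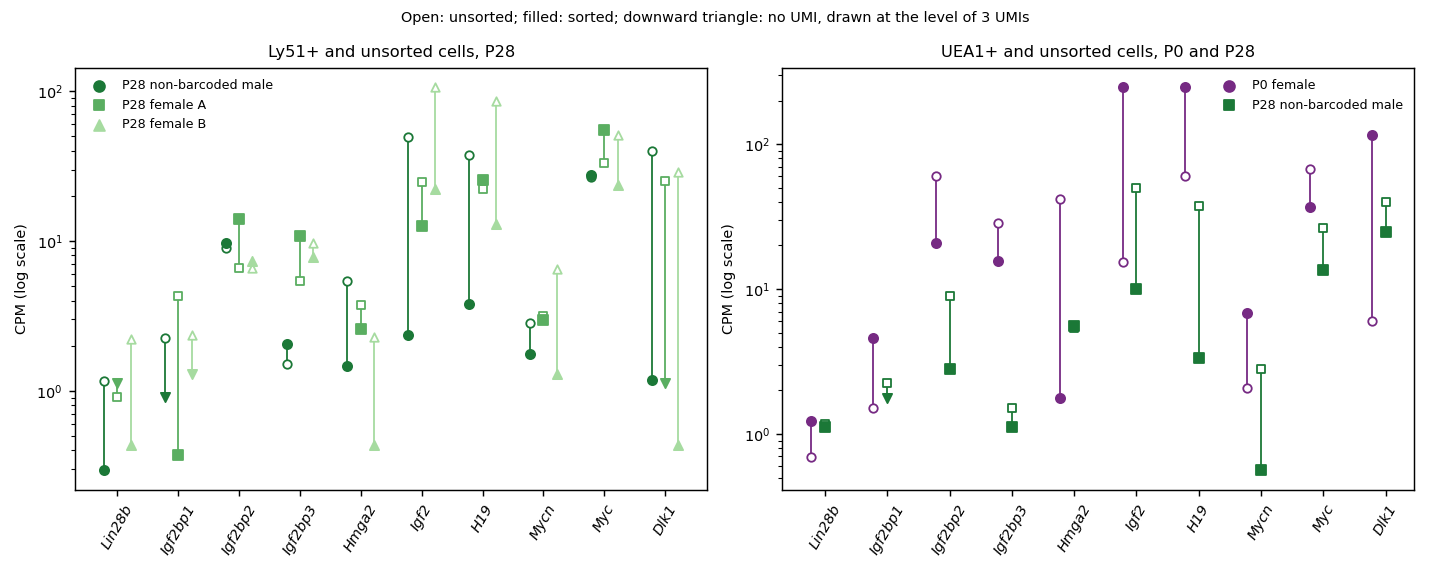
CPM on a log axis in unsorted (open) and sorted (filled) cells of the same mouse, joined by a line, for Ly51+ cells of 3 P28 mice (left) and UEA1+ cells of the P0 female and the P28 non-barcoded male (right), and a downward triangle marks 0 UMIs drawn at the level of 3 UMIs. Dlk1 and Igf2 drop in Ly51+ cells of all 3 mice, and at P0 Igf2, H19 and Dlk1 rise and Hmga2 drops in UEA1+ cells.

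The relation to the cell cycle was asked by dividing the unsorted cells of each P28 mouse into cycling and other cells, where a cycling cell had at least 7 of its 1000 thinned UMIs from 94 S-phase and G2/M genes, none of them a member. Cycling cells were 30.9% at E16.5, 15.2% at P0, 5.90%, 8.75%, 6.41% and 13.1% in the P28 mice and 2.46% at 1 year. Igf2 was lower in cycling cells of each P28 mouse, at 5.07, 6.84, 9.46 and 37.8 CPM against 54.3, 47.01, 26.5 and 124 CPM in other cells (log2 fold change -2.25 ± 0.26 SE, for comparison 4.43 for the proliferation gene Mki67, edgeR adjusted p = 0.000100). In female B 1 cell held 47.9% of the Igf2 UMIs of the other cells, which without it were at 62.5 CPM. Dlk1 was at 6.08, 4.70, 0.946 and 9.35 CPM in cycling cells against 43.5, 26.6, 27.9 and 33.8 CPM (log2 fold change -2.49 ± 0.27, edgeR adjusted p = 5.72e-05), also lower in 4 of 4 mice.

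Igf2bp1 had 3, 0, 0 and 2 UMIs in cycling cells against 43, 132, 42 and 28 in other cells (log2 fold change -2.67 ± 0.82, edgeR adjusted p = 0.0244). These 3 of 10 members were lower, where 22.9% of the 17610 genes tested were, and none was higher, where 18.1% were. Igf2bp1 passed the filter on low counts through the non-cycling cells, so its call is not independent of the filter. Myc did not differ detectably between cycling and other cells, at 55.7, 83.8, 19.9 and 65.9 CPM against 23.5, 90.5, 34.8 and 47.4 CPM, higher in 2 of 4 mice (log2 fold change 0.33 ± 0.23, edgeR adjusted p = 0.264). Mycn (0.39 ± 0.42), Igf2bp3 (0.58 ± 0.49), Igf2bp2 (-0.36 ± 0.38), Hmga2 (-0.77 ± 0.55), H19 (-0.68 ± 0.46) and Lin28b (-0.92 ± 0.85) did not pass either, with edgeR adjusted p between 0.257 and 0.486. H19 in female B went the other way from the other 3 mice, with 127 CPM in cycling and 74.7 CPM in other cells, and without mesenchyme-marked and thymocyte-marked cells H19 was called lower (-1.40, edgeR adjusted p = 0.00267), as it was without female B (-1.89, adjusted p = 0.00161). Igf2bp3 was called higher without the non-barcoded male (0.99, edgeR adjusted p = 0.0338), but its direction turned without the marked cells.

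The Igf2bp1 call did not pass without the marked cells (log2 fold change -2.18, edgeR adjusted p = 0.0536), without the barcoded male (-1.71, 0.139), without female A (-2.35, 0.0937) or over all 10 mice (-0.90, 0.234). Dlk1 did not pass over all 10 mice either (-0.80, edgeR adjusted p = 0.249). With cycling cells defined by 1 UMI of Mki67 or Top2a, Igf2 (-0.86, edgeR adjusted p = 0.122) and Igf2bp1 (-0.56, adjusted p = 0.577) did not pass. Of the cells with 10 or more UMIs, 2 of 51 Igf2-rich and 0 of 46 Dlk1-rich cells of the 4 P28 mice that could be classed were cycling, where 5.90% to 13.1% of all cells were. At E16.5 14 of 30 Igf2-rich cells were cycling, where 30.9% of all cells were, and 8 of the 30 were mesenchyme-marked. The cells were classed by other genes of the same cells, so that a difference in cell type between the classes also enters. Aire, for one, differed by -0.57 ± 0.17 on the log2 scale between cycling and other cells (edgeR adjusted p = 0.0247), and its part in the result was not tested.

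All 30 Myc target genes tested were higher in cycling cells (median log2 difference 1.10, all genes -0.14), led by the nucleolar proteins Nop56 (1.61) and Fbl (1.43) and the spermidine synthase Srm (1.51). Myc itself was not called, in a comparison that recovered 53% of simulated 2-fold changes. Of all 17610 genes tested 18.1% were higher and 22.9% lower. Of 23 genes of the let-7 axis 12 were higher and none lower, with Hmga1 (1.59), the relative of Hmga2, the phosphatase Cdc25a (1.53) and the microRNA processing factor Dgcr8 (1.10) in front. Among these 12, Cdc25a, Ccnd1 and Ccnd2 are cell cycle genes themselves. The cells were classed by other cell cycle genes, so the counts of 30 Myc targets and of these 12 are not independent of the classes. In IGF signalling 9 of 18 were lower, with Igfbp6 (-3.20), Igf1 (-3.06) and Ins2 (-2.60) most, and 1 was higher (Grb10). Imprinted genes had 8 of 21 lower, led by Zdbf2 (-2.09), Mirg (-1.995) and Ascl2 (-1.78), and 2 higher. In the Myc network Mxd3 (4.46) was higher and Mxd1 (-1.59) and Mxd4 lower, with Aurka left out because it belongs to the G2/M list.

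The E16.5 mouse was also divided into cycling and other cells. Non-cycling E16.5 cells had 79.7 CPM of Hmga2 and 122 CPM of Igf2bp2, against 109 and 113.6 CPM in cycling cells of the same mouse, and each stood above every P28 mouse in both classes. Igf2bp3 was at 46.8 and 48.7 CPM and H19 at 258 and 257 CPM in non-cycling and cycling E16.5 cells. Igf2 was at 89.6 and 75.7 CPM and Dlk1 at 24.3 and 16.4 CPM. The 12 mesenchyme-marked cells described above, which held 72.8% of the Dlk1 and 36.8% of the Igf2 UMIs of this mouse, are included in these values, and the difference between the ages was not tested.

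**Figure D5:**
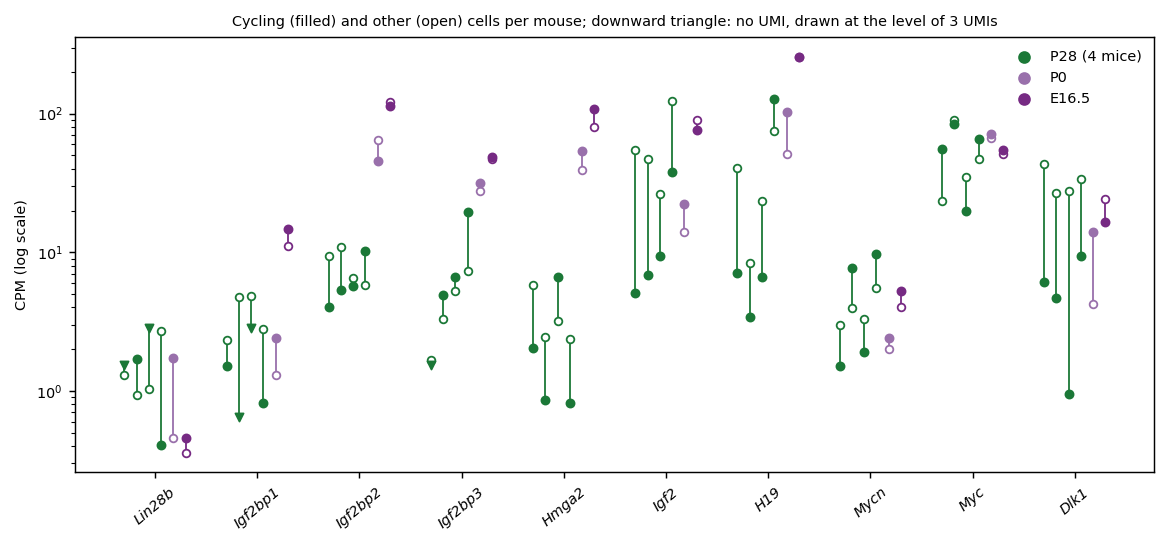
CPM on a log axis in cycling (filled) and other (open) cells of each P28 mouse (green, in the order non-barcoded male, barcoded male, female A and female B), the P0 mouse (light purple) and the E16.5 mouse (dark purple), joined by a line, with a downward triangle at the level of 3 UMIs where cycling cells had no UMI. Igf2 and Dlk1 are lower in cycling cells of all 4 P28 mice, and Myc has no common direction.

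The transgene comparison asked whether continuous Fgf7 brings fetal growth genes back. At P28 none of the 10 members was called in either direction (edgeR quasi-likelihood test, 4 wild-type against 2 transgenic mice with well volume as a covariate), where 0.545% of the 20562 genes tested were called higher and 0.102% lower. Of the members 2 had an unadjusted p under 0.05 in this test, as had 3128 of the 20562 genes. The simulated recovery at this size was 4% of 2-fold and 53% of 4-fold changes, so moderate changes were not detectable. The transgenic non-barcoded male and female are listed in this order below.

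Igf2bp2 was at 9.63 and 20.8 CPM in the transgenic mice against 6.60 to 10.1 CPM in the 4 wild-type mice (log2 fold change 1.14 ± 0.36 SE, edgeR adjusted p = 0.218). The female stood above all wild-type mice, while the non-barcoded male, at 9.63 CPM, lay near its non-barcoded wild-type counterpart at 8.92 CPM. In Psmb11-positive cells alone Igf2bp2 was at 10.6 and 25.1 CPM against 5.67, 6.56, 2.78 and 5.61 CPM and was called higher (log2 fold change 1.84, edgeR adjusted p = 0.0397), which remained below the 61.2 CPM of the same gate at P0. Psmb11 itself was at 131 and 925 CPM in the transgenic and 81.8 to 413 CPM in the wild-type mice.

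Dlk1 was at 25.9 and 4.48 CPM against 39.9, 23.4, 25.03 and 28.8 CPM (log2 fold change -1.47 ± 0.46, edgeR adjusted p = 0.2199), the transgenic female being below all wild-type mice. Aire moved with it, at 239.5 CPM in the transgenic male and 81.2 CPM in the female against 283.99 to 370 CPM in the wild-type mice, and its part was not tested. Dlk1 was called lower by DESeq2 (adjusted p = 0.0240) and in Psmb11-positive cells (-2.80, edgeR adjusted p = 0.0280). Leaving out the non-barcoded wild-type male or the non-barcoded transgenic male brought both genes past the threshold (Igf2bp2 1.56 and 1.53, adjusted p = 0.0357 and 0.0392, and Dlk1 -2.36 and -2.39, adjusted p = 0.0103 and 0.00880), and without the wild-type non-barcoded male Igf2bp1 also passed (-2.50, adjusted p = 0.0453). In those fits the non-barcoded mice were of 1 genotype, so that the effect rested on the barcoded mice alone, that is on 1 transgenic female against 3 wild-type mice, and the lone female was assumed to vary like the others. Without the transgenic female, the log2 fold change of Igf2bp2 was 0.38 (edgeR adjusted p = 0.976) and that of Dlk1 -0.34 (adjusted p = 0.932), so that both differences rested on this female.

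Of the fetal genes, Hmga2 was at 6.50 and 2.44 CPM against 2.26 to 5.41 CPM (0.23 ± 0.41), Igf2bp3 at 1.32 and 3.63 CPM against 1.51 to 9.64 CPM (-0.34 ± 0.51) and Igf2bp1 at 7.72 and 0.559 CPM against 2.24 to 4.27 CPM (-0.37 ± 1.19). For Igf2bp1 the transgenic male lay above and the female below all wild-type mice, and 32 of the 64 UMIs of the male came from 1 Aire-positive cell. Igf2 was at 43.02 and 25.4 CPM, inside the wild-type range, and H19 was at 33.9 and 11.6 CPM, inside it too, although 1 cell held 76.4% of the H19 UMIs of the male and 1 cell 30.2% of those of the female, without which they were at 7.85 and 8.08 CPM. Mycn (1.44 and 2.13 CPM) was below the lowest wild-type value of 2.83 CPM in both mice without passing (-0.86 ± 0.45, edgeR adjusted p = 0.411). Myc was at 29.01 and 39.9 CPM and Lin28b at 1.08 and 0.140 CPM. In the pathway lists 1 imprinted gene, Impact (1.36 ± 0.21, edgeR adjusted p = 0.0449), and 1 IGF-related gene, Igfbp7 (2.04 ± 0.20, adjusted p = 0.0151), were higher, and no gene of the let-7 axis, the Myc network or the Myc targets was called.

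At 1 year the transgenic male and the wild-type female differed in sex as well as genotype. By a ratio of 2 or more, 7 of 10 members were lower in the transgenic mouse, where 9.52% of 18923 genes were, and none was higher, where 5.62% were. Dlk1 (1.501 against 5.94 CPM, ratio of UMIs 0.252, 0.155 to 0.405), H19 (1.84 against 5.18 CPM, 0.354, 0.222 to 0.564) and Igf2 (11.1 against 26.2 CPM, 0.424, 0.350 to 0.515) had intervals below 1, as had Hmga2 (0.726 against 1.89 CPM, 0.382, 0.174 to 0.839). For Lin28b, Igf2bp1 and Mycn the intervals reached past 1, on 5 to 13 UMIs per mouse. For H19 the unused wells held 29 UMIs in the wild-type and 6 in the transgenic mouse, against 55 and 42 in used wells. The interval of its ratio does not cover such misassigned reads. Igf2bp2 (12.2 against 9.34 CPM), Igf2bp3 (2.32 against 3.41 CPM) and Myc (28.4 against 35.7 CPM) stayed within 2-fold. In Psmb11-positive cells Igf2 went the other way (84.4 against 33.6 CPM, 66 and 25 UMIs from 99 and 134 cells). Dcn was at 597.4 CPM in the transgenic and 1561 CPM in the wild-type mouse, where the other 11 mesenchyme genes summed to 178.8 and 103.7 CPM, and without mesenchyme-marked and thymocyte-marked cells the same 7 members were lower. Those marks use no parathyroid or TEC genes. In the same order the parathyroid list was at 1980 and 25923 CPM and the cortical list at 2200 and 5975 CPM. The medullary list was at 9184 and 10055 CPM, Psmb11 at 44.9 and 150 CPM and Aire at 80.6 and 122 CPM. Their part was not tested. None of the 7 ratios reached 4-fold. Of 21 imprinted genes 6 were lower as well, with Magel2, Zdbf2 and Ndn first, and of 19 genes of IGF signalling 5 were lower and 1 higher.

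Across the 10 mice, the genes whose log2(CPM + 1) followed a member most closely were sought among 12522 genes with a mean of 5 CPM or more, as a description without a test. The nearest to Myc were Ppp1r18 (Pearson r = 0.97), Ifrd1 (0.96) and Gabpb1 (0.95), and to Igf2 they were Ppargc1b (0.93), Ccne2 (0.91) and Exo1 (0.87). For Lin28b they were Depdc5 (0.93), Amelx (0.90) and S100a14 (0.90), and for Igf2bp1 9430020K01Rik (0.90), Ankrd37 (0.86) and Gm37219 (0.85). With 10 points and so many genes, high values arise by search alone, and the points share mouse, depth and cell composition.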

How the data were processed

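EpCAM+CD45- TECs of 10 mice were profiled by CEL-Seq2 in 380 libraries of 96 wells. Per the study's methods, the authors aligned reads with BWA 0.6.2-r126 to ENCODE VM9 gene models (bcl2fastq 2.17.1.14 is in the submitters' processing notes), discarded reads mapping to several loci, counted UMIs in the sense direction and deposited estimated counts, transcripts corrected for UMI collisions. Per the labels, groups were taken from age, genotype, sex and sort, and mice from the libraries that share them. The deposited estimated counts of every file went back to whole UMIs (largest deviation 4.09e-12). A library was read from whichever barcode set of its 192 barcode columns held at least 80% of transcripts (2 libraries were left out), and 0 columns of other samples were present. Cells needed 3000 transcripts (E16.5, P0, transgenic 1 year), 1500 (P28) or 1000 (wild-type 1 year) and at most 2% Kcnq1ot1, which left 25154 cells. For 8665 pairs of libraries of the same mouse, the mean correlation of cells in the same wells was set against that in shifted wells. In no pair was the excess above 0.2.

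Estimated counts were summed per mouse, rounded and tested with edgeR 4.0.16 (filterByExpr, TMM, quasi-likelihood, Benjamini-Hochberg adjustment over all genes tested, threshold 0.05) in R 4.3.3, with DESeq2 1.42.0 as an alternative. The mouse is the replicate. Sums of sorted and cycling cells were paired by animal and mouse was a block. Simulated data at 4-fold change gave 52% recovery for Ly51+ cells and 85% for cycling cells. Cycling cells were those above the median of 2 UMIs by 3 scaled median absolute deviations (6.45 UMIs of 1000). Ages with 1 mouse were compared by a 2-fold rule with a floor of 3 UMIs. Genes named are the 10 members and at most 3 called genes of largest fold per pathway list and comparison, plus some named for small counts after their values were seen. The members and lists were chosen with earlier results of these data known. The 4 libraries labelled as a biological replicate were counted with the non-barcoded male, since the methods list 1 such mouse, but had 382 CPM of Xist against 1.57 CPM in the others, and without them its H19 was at 28.3 CPM in place of 37.6.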

Additional observations from a re-analysis of the deposited data

Results flagged for a closer look

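The barcodes that a library did not use give a measure of misassigned reads outside the comparisons above. Over all genes their UMIs came to 2.91% of those in used wells. For 4 members the share was above this level: Igf2 at 7.67% (605 UMIs), H19 at 5.38%, Mycn at 4.51% (25 UMIs) and Hmga2 at 3.31%. The other 6 members were between 1.62% and 2.73%. The 605 UMIs of Igf2 fell in 1.11% of the 33696 unused wells, and 246 of them were of P28 female B. In single mice the share could be larger. For Hmga2 in P28 female A unused wells held 25 UMIs against 41 in used wells. For H19 in the 1-year wild-type female they held 29 against 55.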

How the results depend on the processing

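For the age comparisons, a 4-fold limit in place of 2-fold left 3 members outside the P28 range at E16.5, 2 at P0, 0 at 1 year and 0 for the transgenic mouse at 1 year. Psmb11-positive cells alone left 0 at 1 year, of 8 members with enough UMIs. For the transgenic mouse at 1 year they gave 1 of 3, Igf2, which was higher there and not lower. Directions turned for Dlk1 at P0 with sorted libraries included (0.46), and in Psmb11-positive cells for Mycn at 1 year (0.43) and Igf2 in the transgenic mouse at 1 year (1.33). The genes called for the transgene at P28 were 0.647% of those tested (133) and went to 0% without the covariate (edgeR, 1267 genes at an unadjusted p under 0.05), 6.26% (1180) with DESeq2, 1.10% without the filter on low counts and 8.02% (1007) in Psmb11-positive cells. With 1 mouse left out they were 0% (without wild-type female A, 2444 at an unadjusted p under 0.05) to 11.05% (2250, without the non-barcoded wild-type male), with 0.00513% to 9.78% for the other 4 mice, so this count depends on single mice. Member values in that comparison turned in some fits with 1 mouse left out, where the fold change of Lin28b was -3.12 to 0.16, of Igf2bp1 -2.54 to 2.05, of Igf2bp3 -0.61 to 0.0827, of Hmga2 -0.0322 to 0.54, of Igf2 -1.05 to 0.0716, of H19 -1.55 to 0.13 and of Myc -0.42 to 0.40 on the log2 scale. For Lin28b, Igf2bp1, Igf2bp3, Igf2, H19 and Myc the turn came without the transgenic female, for Myc also without the wild-type barcoded male (0.24), and for Hmga2 without the transgenic male. Igf2bp1 also turned without the covariate (0.54) and Hmga2 in Psmb11-positive cells (-0.27). In the Ly51+ comparison 33.1% of genes (5613) became 23.6% (3707) without the replicate block that pairs sums by animal, and 9.14% (without female B), 21.7% (without female A) and 42.7% with 1 mouse left out, where Myc was at -0.46 to 0.35. In the cycling comparison 41.02% of genes (7223) became 20.8% (3305) without the replicate block, 18.002% (3306) with Mki67 or Top2a as the mark of cycling and 30.8% to 38.96% with 1 mouse left out. There Lin28b (0.0027) and Igf2bp3 (-0.0626) turned with the Mki67 or Top2a mark, Igf2bp3 without marked cells (-0.38), H19 without the pairing (0.0572) and with 1 mouse left out (-1.89 to 0.0016), and Mycn with the limit at 5 deviations (-0.43), whereas at 2 deviations Mycn was called higher (1.13, edgeR adjusted p = 0.0199). Igf2 did not pass there without the pairing (adjusted p = 0.0558) and Dlk1 over all 10 mice (-0.80, adjusted p = 0.249). The cause of these changes was not tested. Of 77 alternative values of whole comparisons 56 kept their value within 1.5 times or their call, and of 746 of single members 660 counted as the same. In the tests this meant the same direction and call. In the age and 1-year comparisons it meant a log2 value moved by no more than the SD over the P28 mice. A call lost there, as under the 4-fold limit, did not count as a change. Depth limits Lin28b most, at 4 to 35 UMIs per mouse.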
